A study of Homo sapiens with 6 samples.

Results

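In NCI-H1650Re, 28 genes from the end of the long arm of chromosome 16 were set against their level in the parental line NCI-H1650. The list holds 30 genes, given as genes of band 16q24, that were chosen because neighbours there were higher together in this same comparison, so their differences are a description and carry no test; the annotation used here gives no bands. Of the 30, 28 had a row in the authors' table of 12659 genes and the expression of the other 2, CRISPLD2 and MLYCD, is not analysed here. On average the 28 were raised, but not all of them: in 24 of 28 every NCI-H1650Re library was above every NCI-H1650 library, while MBTPS1, BANP, APRT and CPNE7 overlapped. Over all genes tested, 26.3% showed that same separation, and nothing is read from the members' share because that difference chose them. The choice was made on the 6 libraries shown here, and no other library was there to repeat it on. In RNA from bulk cultures, a higher level in every cell and a larger share of cells with a high level cannot be told apart.

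NCI-H1650 is an established human lung adenocarcinoma cell line, and NCI-H1650Re is its derivative. Per the labels, the parental line stands for the state before transformation (pre-LUAD) and the derivative for the state after it (post-SCLC), small cell lung cancer being a neuroendocrine tumour. Polyadenylated RNA was sequenced from 3 libraries of each line, with no other treatment in the labels, whose cell line tag gives the parental name for all 6. Whether the derivative is a clone, and whether replicates came from separate cultures, was not stated in the sources used here, so the spread between libraries may be technical. Levels are FPKM (fragments per kilobase of transcript and of sequencing depth), which divides by transcript length, and a log2 change is the mean log2(FPKM + 1) of NCI-H1650Re less that of the parental line, a scale on which low genes show too small a change.

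The end of 16q is gene-rich, and its genes serve unrelated tasks, from lysosomal digestion to chromatin control. Neighbouring genes of a chromosome segment share their DNA copy number, and gain or loss of a segment is known in cancer cells to move many of its genes in parallel, each to a different extent. DNA was not measured in the data used here.

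Estimated depth ran from 17.0 to 22.3 M fragments per library. Across genes, log2 values of 2 parental libraries correlated at 0.988 or more (Pearson), those of 2 derivative libraries at 0.980 or more, and those of different lines at 0.970 or less. Of 6 epithelial markers all 6 had values, with a summed level of 3456 to 4575 FPKM in NCI-H1650 and 3017 to 3041 FPKM in NCI-H1650Re. Of 8 small cell and neuroendocrine markers 3 had values (CHGA, SYP and DLL3), summing to 4.47 to 5.59 FPKM in NCI-H1650 and 7.48 to 11.2 FPKM in NCI-H1650Re. None of 4 alveolar, 3 leukocyte and 3 endothelial markers had a row, and of 3 fibroblast markers only COL1A1 had one. It was at 0.98 to 1.05 FPKM in NCI-H1650 and 1.05 to 2.69 FPKM in NCI-H1650Re. The part of these markers in the result was not tested.

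Promoters of 3 members are shown to set the gene with the largest change, ZDHHC7, beside the one nearest the median, FBXO31, and the one with the smallest, APRT. Each runs from 250 bases before to 50 after the start RefSeq gives (GRCh38.p14, minus strand), at chr16:85011486-85011785 for ZDHHC7, chr16:87392072-87392371 for FBXO31 and chr16:88811879-88812178 for APRT. Capitals mark GGGCGG or its complement, a GC box of the kind Sp1 binds, TGACGTCA, the palindromic cyclic AMP response element, and TGACNNNGC, the core of the antioxidant response element.
ZDHHC7: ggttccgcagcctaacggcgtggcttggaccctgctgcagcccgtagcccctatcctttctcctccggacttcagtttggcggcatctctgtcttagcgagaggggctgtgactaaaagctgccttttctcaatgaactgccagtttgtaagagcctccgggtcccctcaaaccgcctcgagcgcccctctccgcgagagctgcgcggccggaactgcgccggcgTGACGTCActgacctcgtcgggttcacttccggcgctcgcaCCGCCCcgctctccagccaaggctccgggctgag
FBXO31: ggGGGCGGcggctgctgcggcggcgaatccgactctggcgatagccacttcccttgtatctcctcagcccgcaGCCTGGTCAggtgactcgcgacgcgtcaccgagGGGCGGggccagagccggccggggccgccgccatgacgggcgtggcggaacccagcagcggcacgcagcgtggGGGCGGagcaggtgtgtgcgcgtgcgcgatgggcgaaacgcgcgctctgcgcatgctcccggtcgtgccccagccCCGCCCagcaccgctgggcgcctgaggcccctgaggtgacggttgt
APRT: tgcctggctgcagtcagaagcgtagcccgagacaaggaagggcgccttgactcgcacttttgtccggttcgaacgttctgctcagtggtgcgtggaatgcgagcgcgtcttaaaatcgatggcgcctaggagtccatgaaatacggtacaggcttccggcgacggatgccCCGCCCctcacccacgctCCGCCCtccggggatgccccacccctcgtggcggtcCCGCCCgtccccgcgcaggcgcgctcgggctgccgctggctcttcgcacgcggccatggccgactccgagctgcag
The ZDHHC7 window held 1 GGGCGG match and 1 TGACGTCA, that of FBXO31 4 GGGCGG matches and 1 TGACNNNGC, and that of APRT 3 GGGCGG matches and none of the others. They held 28, 40 and 36 CpG dinucleotides in the same order, so the gene with the smallest change did not have the fewest.

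A promoter was found for 27 of the 30 listed genes; HSDL1, KLHDC4 and CPNE7 had no entry. GGGCGG, searched on both strands, was in 25 of 27 (92.6%), against 71.9% of 8766 promoters of genes tested here and 45.0% of all 35116 promoters of the same length. TGACGTCA was in 3 of 27 (11.1%: CTU2, RNF166 and ZDHHC7), against 3.41% and 1.85%. RNF166, on the minus strand, begins at 88706421 and CTU2, on the plus strand, at 88706463, so their windows can share bases. ANKRD11 (89490561) and SPG7 (89490719) lie likewise. A site in shared bases counts for both genes, for GGGCGG too, and the shares are not adjusted for it. CCAAT was in 5 (18.5%), against 36.5% and 34.6%, TGACNNNGC in 5 (18.5%), against 15.1% and 13.3%, and TATAAA in 1, that of PIEZO1 (against 5.07% and 11.5%). The palindromic CGCG element that the member BANP binds was in 1 member promoter, that of CHMP1A, and in 1.02% of promoters of tested genes. The median member promoter had 40 CpG and 75.3% GC, against 27 CpG and 65.7% GC over promoters of tested genes, and the part of this base composition in the motif shares was not tested. No motif was tested for enrichment, and a match is only a match of letters.

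The members span 5.71 Mb, from OSGIN1 at chromosome 16, 83948282 to 83966332, to CHMP1A at 89644431 to 89657845 (GENCODE release 29, GRCh38). Their median log2 change was 0.44, from 0.05 (APRT) to 0.998 (ZDHHC7), with a lower quartile of 0.37 and an upper quartile of 0.67. Over all 11764 genes tested, the median was 0.03, and the quartiles were -0.16 and 0.22. As a ratio of mean FPKM, the median member stood 1.45-fold higher in NCI-H1650Re. Of the 28, 18 lay between 1.25-fold and 1.75-fold, 7 lay above (CPNE7, ZDHHC7, KIAA0513, ANKRD11, ZFPM1, CYBA and RNF166) and 3 lay below (MBTPS1, BANP and APRT). The SD of the log2 change over the members was 0.23, which is 2.59 times the median standard error of a single member's change (0.09, from the libraries of the same line). Over all genes tested that SD was 0.41. The members were chosen because they were higher together, which narrows their spread, so nothing is read from the smaller SD.

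**Figure D1:**
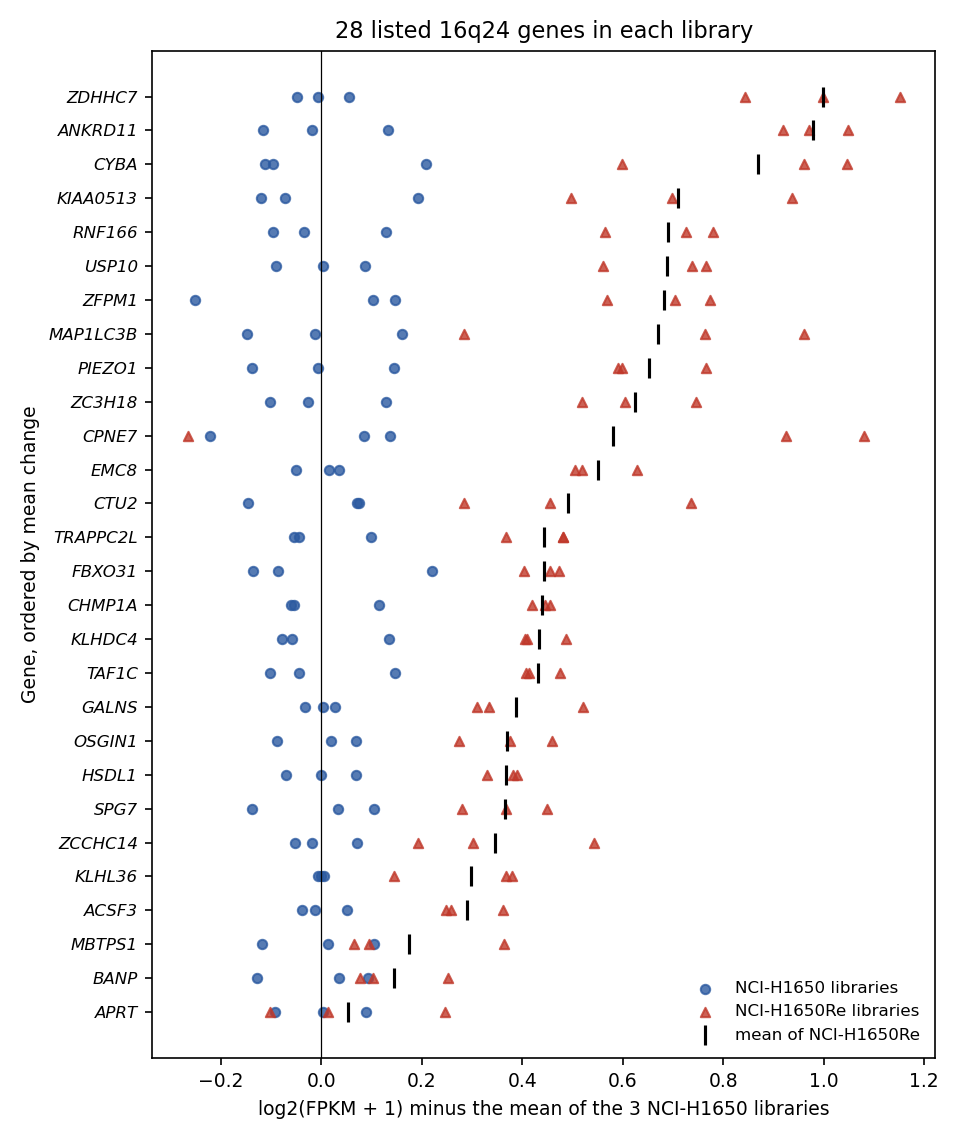
Each row is 1 of the 28 genes with values, ordered by mean change; the x axis is log2(FPKM + 1) minus the mean of the 3 NCI-H1650 libraries, circles are NCI-H1650 libraries, triangles NCI-H1650Re libraries and black ticks the NCI-H1650Re mean. The triangles stand to the right of all circles in 24 rows, and the means run from 0.05 for APRT to 0.998 for ZDHHC7.

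A group of 7 members handles membranes, proteins and their breakdown, and 6 of 7 had no overlap between lines (median log2 change 0.44). Over all genes tested 26.3% separated in this way. Nothing is read from this count or from those of the other roles, because that difference chose the members. ZDHHC7, a Golgi palmitoyltransferase that attaches lipid to proteins, was at 14.6, 15.1 and 15.8 FPKM in the parental libraries and at 27.9, 31.3 and 34.8 FPKM in the derivative (replicates 1, 2 and 3, as in all such series of values). Its lines were far apart, with means of 15.1 ± 0.584 and 31.3 ± 3.45 FPKM (SD, n = 3 each) and a 2.07-fold ratio. MAP1LC3B, which encodes the autophagosome protein LC3B, was at 13.5, 12.2 and 15.3 FPKM in NCI-H1650 and at 16.7, 23.8 and 27.4 FPKM in NCI-H1650Re. The lines did not overlap, but NCI-H1650Re replicate 1 stood close to the parental libraries. EMC8, a subunit of the complex that inserts proteins into the endoplasmic reticulum membrane, had means of 18.8 ± 0.609 and 28.1 ± 1.37 FPKM (1.49-fold).

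CHMP1A, an ESCRT-III protein of endosomal sorting, was at 39.8, 39.7 and 44.9 FPKM in NCI-H1650 and at 57.1, 56.8 and 55.7 FPKM in NCI-H1650Re. Its NCI-H1650Re libraries varied least of all members, with a coefficient of variation of 1.33%. TRAPPC2L, a subunit of a vesicle tethering complex, had means of 6.86 ± 0.474 and 9.69 ± 0.476 FPKM (1.41-fold), and GALNS, a lysosomal sulfatase, 14.7 ± 0.332 and 19.6 ± 1.68 FPKM (1.33-fold). MBTPS1, the site-1 protease that releases membrane-bound transcription factors such as SREBP, was the member of this group that overlapped. It was at 31.9, 34.1 and 29.1 FPKM in NCI-H1650 and at 33.1, 33.8 and 41.0 FPKM in NCI-H1650Re. Replicates 1 and 2 of NCI-H1650Re lay inside the parental range, and replicate 3 alone was above it.

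**Figure D2:**
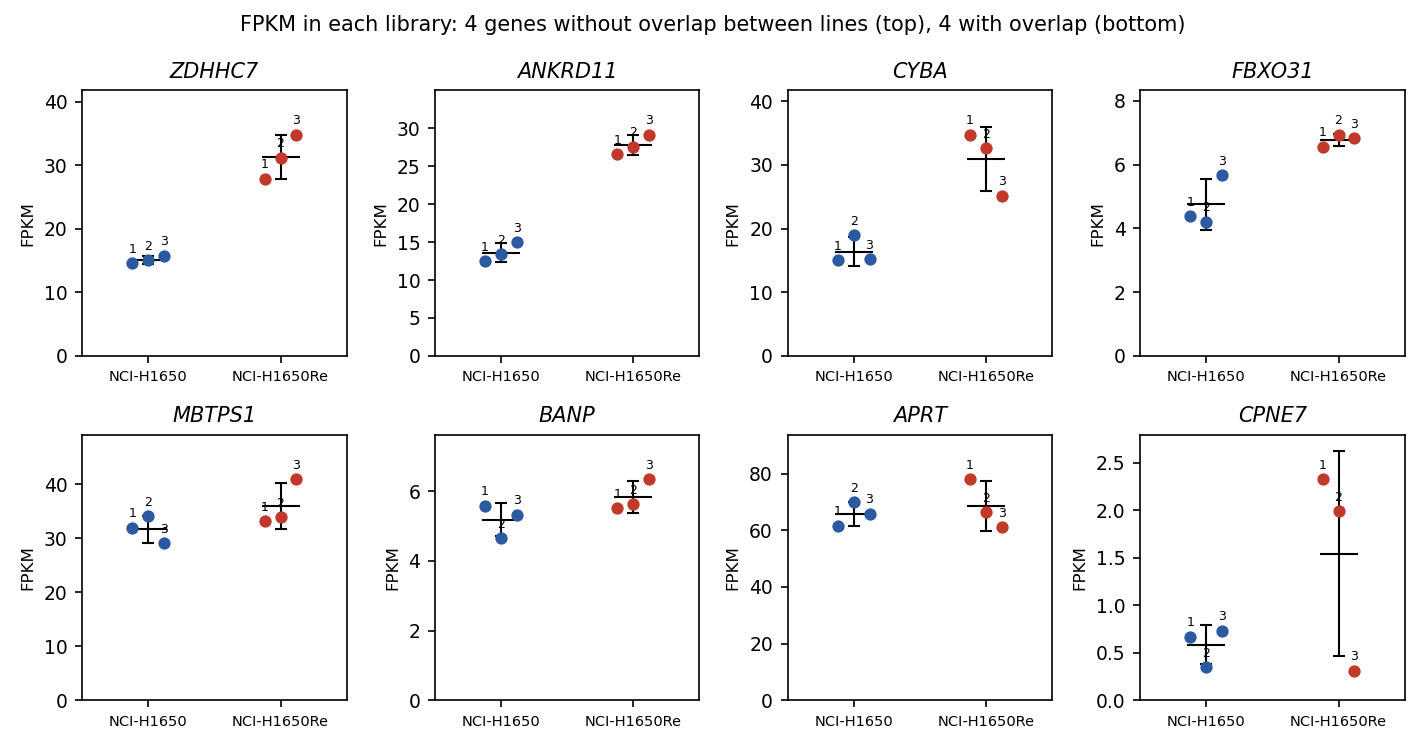
FPKM (y axes from 0) of 8 listed genes in NCI-H1650 (left of each panel) and NCI-H1650Re (right), 1 point per library labelled with its replicate number, with the mean and SD. In the upper row the lines stand apart, as for ANKRD11, at 13.6 and 27.8 FPKM; in the lower row they overlap, as for APRT, at 65.8 and 68.6 FPKM.

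Another 7 listed genes act in mitochondria, metabolism or redox chemistry, 6 of them with values and 5 of those without overlap (median log2 change 0.37). CYBA, the p22phox subunit shared by NADPH oxidases, was at 15.02, 19.0 and 15.2 FPKM in NCI-H1650 and at 34.8, 32.7 and 25.2 FPKM in NCI-H1650Re. The lowest NCI-H1650Re library, replicate 3, was still above every parental one, and the ratio of means was 1.88-fold. OSGIN1, an oxidative stress-induced growth inhibitor and NRF2 target, had levels near the filter of 1 FPKM used here. It was at 0.96, 0.82 and 1.03 FPKM in NCI-H1650 and 1.51, 1.66 and 1.34 FPKM in NCI-H1650Re. SPG7, a subunit of the inner-membrane m-AAA protease, had means of 11.0 ± 1.01 and 14.4 ± 0.900 FPKM (1.31-fold). ACSF3, the mitochondrial malonyl-CoA synthetase, stood at 3.73 ± 0.150 and 4.79 ± 0.255 FPKM (1.28-fold), and HSDL1, a mitochondrial member of the short-chain dehydrogenase family, at 4.10 ± 0.245 and 5.58 ± 0.146 FPKM (1.36-fold).

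APRT, the adenine phosphoribosyltransferase of purine salvage, was the member with the highest level and the smallest change. It was at 61.6, 70.0 and 65.9 FPKM in NCI-H1650 and at 78.1, 66.4 and 61.2 FPKM in NCI-H1650Re. Only NCI-H1650Re replicate 1 was above the parental range, and replicate 3 was below it, so 5 of 9 pairings of a library with one of the other line put NCI-H1650Re higher. Without NCI-H1650Re replicate 1 its log2 change was -0.04. Its neighbours on either side, CDT1 and GALNS, both had higher levels in NCI-H1650Re without overlap.

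The ubiquitin system and kelch-repeat proteins had 5 members, and 5 of 5 had no overlap (median log2 change 0.44). Over the whole list this held for 24 of 28 and over all genes tested for 26.3%, and nothing is read from the count. USP10, a deubiquitinase that acts on p53, was at 19.96, 17.6 and 18.8 FPKM in NCI-H1650 and at 32.6, 31.9 and 28.1 FPKM in NCI-H1650Re, a 1.64-fold ratio of means. RNF166, a RING ubiquitin ligase, had the largest change of the group, at 3.54 ± 0.373 and 6.33 ± 0.555 FPKM (1.79-fold). FBXO31, the F-box subunit of a ubiquitin ligase for cyclin D1, stood at 4.76 ± 0.796 and 6.78 ± 0.191 FPKM, and KLHDC4, a kelch-domain protein, at 4.24 ± 0.437 and 6.06 ± 0.225 FPKM. Both were 1.43-fold higher. KLHL36, a kelch-like protein of the family that links substrates to cullin 3, was at 4.05, 4.03 and 4.07 FPKM in NCI-H1650 and at 4.58, 5.57 and 5.52 FPKM in NCI-H1650Re. The parental libraries were nearly equal, and replicate 1 of NCI-H1650Re was the nearest to them.

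A further 7 members act on transcription, chromatin or RNA, 6 of 7 without overlap (median log2 change 0.49). ANKRD11, a chromatin regulator that recruits histone deacetylases, was at 12.5, 13.4 and 15.0 FPKM in NCI-H1650 and at 26.6, 27.6 and 29.1 FPKM in NCI-H1650Re. Its ratio of means was 2.04-fold, with little spread in either line. ZFPM1, the GATA cofactor FOG1, was at 1.76 ± 0.398 and 3.40 ± 0.314 FPKM (1.94-fold), and ZC3H18, which links the cap-binding complex to the nuclear exosome, at 14.8 ± 1.30 and 23.3 ± 1.95 FPKM (1.58-fold). TAF1C, a subunit of the SL1 factor of RNA polymerase I, stood at 7.37 ± 0.773 and 10.3 ± 0.296 FPKM (1.39-fold).

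CTU2, a tRNA thiolation enzyme, was at 5.79, 6.89 and 6.92 FPKM in NCI-H1650 and at 11.5, 9.30 and 8.15 FPKM in NCI-H1650Re. ZCCHC14, a zinc-finger RNA-binding protein, showed the same order, with NCI-H1650Re libraries at 10.1, 8.38 and 7.70 FPKM over 6.51, 6.99 and 6.34 FPKM. In both genes NCI-H1650Re replicate 3 came nearest to the parental range without entering it. BANP, which binds unmethylated CGCG elements in promoters, was at 5.58, 4.65 and 5.32 FPKM in NCI-H1650 and at 5.51, 5.63 and 6.35 FPKM in NCI-H1650Re. Replicate 1 of NCI-H1650Re was below the highest parental library, and 8 of 9 library pairings put NCI-H1650Re higher.

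The remaining 4 listed genes fall outside these roles, 3 of them with values. PIEZO1, the mechanically gated cation channel, was at 25.6, 28.2 and 31.4 FPKM in NCI-H1650 and at 43.4, 43.1 and 48.8 FPKM in NCI-H1650Re, a 1.59-fold ratio of means. KIAA0513 had 1.32, 1.40 and 1.88 FPKM in NCI-H1650 and 2.56, 3.09 and 3.83 FPKM in NCI-H1650Re, on 211 to 249 and 405 to 539 deposited read counts. CPNE7, a copine that binds membranes in response to calcium, was at 0.67, 0.35 and 0.73 FPKM in NCI-H1650 and at 2.33, 1.99 and 0.31 FPKM in NCI-H1650Re. Its 2.65-fold ratio of means was the highest of all members and rested on replicates 1 and 2, since replicate 3 of NCI-H1650Re was below every parental library. CPNE7 and OSGIN1 passed the filter on low values only through NCI-H1650Re; all 28 passed it.

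**Figure D3:**
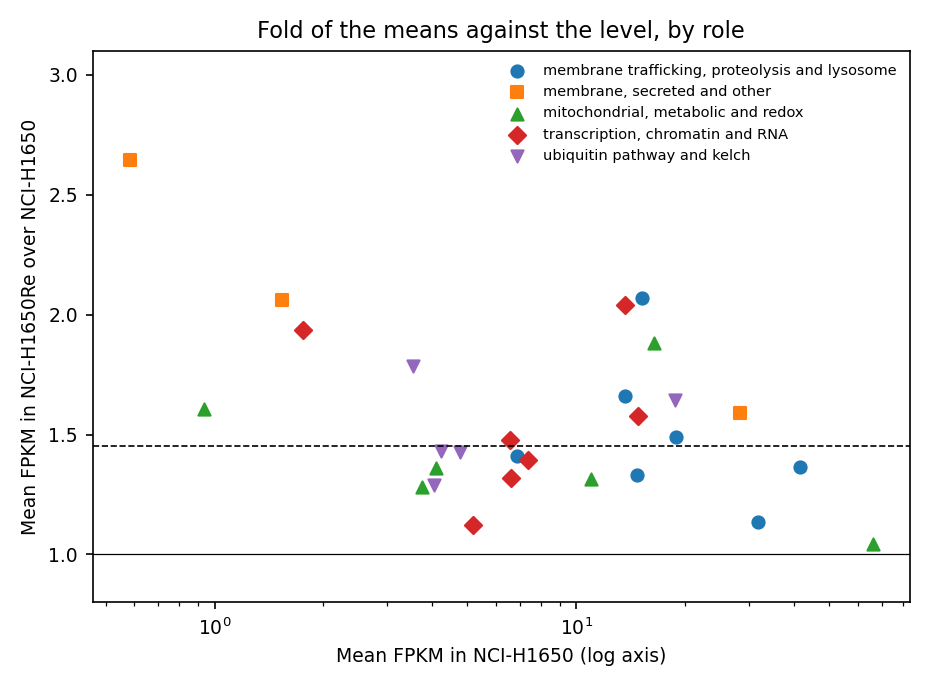
The x axis is mean FPKM in NCI-H1650 on a log axis, the y axis mean FPKM in NCI-H1650Re over that in NCI-H1650, and each marker is 1 of 28 genes, shaped by role; the dashed line is the median, 1.45. The ratios run from 1.04 for APRT to 2.65 for CPNE7, and OSGIN1, ZFPM1, KIAA0513 and CPNE7, at the left, lie above the line. OSGIN1 and CPNE7 passed the filter on low values only through NCI-H1650Re.

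The size of the change followed no single property of the genes closely. Across the 28 members, which share libraries and are not independent, Pearson's r of the log2 change was 0.05 with the mean log2 level, 0.07 with position along the chromosome, 0.09 with transcript GC content, 0.15 with the length of the longest transcript and 0.21 with gene span. Spearman's rho was 0.09, 0.07, 0.13, 0.00383 and 0.02 in the same order. That scale shrinks the change of low genes. As a ratio of mean FPKM, the members lowest in NCI-H1650 (CPNE7, OSGIN1, KIAA0513 and ZFPM1) all lay above the median of 1.45. CPNE7 and OSGIN1 passed the filter on low values only through NCI-H1650Re, so for them NCI-H1650Re had to be higher. The level in NCI-H1650 is also the divisor of the ratio. Nothing is read from this placement, and the relation of that ratio to the level was not tested. The members were GC-rich, with a median transcript GC of 58.0% against 48.4% over tested genes, and over those 11035 genes r of GC with the change was 0.07; the part of GC content in the members' difference was not tested. The 13 members on the plus strand had a median log2 change of 0.49 and the 15 on the minus strand one of 0.44. In all, 9 members overlap another gene of the table on the opposite strand, FBXO31 and MAP1LC3B by 8148 bases, EMC8 and COX4I1 by 976 and GALNS and TRAPPC2L by 751. Whether counting used strand was not stated in the sources used here, so reads of such pairs may not be separable. MAP1LC3B also has a near-identical relative, and its level is uncertain to that extent.

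Over libraries the difference was alike in size. The median member stood 0.47, 0.48 and 0.42 above its NCI-H1650 mean in NCI-H1650Re replicates 1, 2 and 3 on the log2 scale, against 0.05, 0.04 and 0.02 for all tested genes. In each NCI-H1650Re library 26 of 28 members were above all 3 parental libraries. Over all tested genes 44.2%, 42.3% and 38.2% were above all 3 in NCI-H1650Re replicates 1, 2 and 3, and nothing is read from the members' share. Of the 9 pairings of an NCI-H1650Re with an NCI-H1650 library, the one with the fewest members higher had 26 of 28, and the median difference ran from 0.36 to 0.57. Over all tested genes 51.2% to 56.4% were higher in these pairings.

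Within each line the members did not all follow replicate 3 the same way. NCI-H1650 replicate 3 was the highest parental library for 18 of 28 members, and its median deviation from the line mean was 0.07, against -0.01 over all tested genes. The SD of the deviations of all tested genes was 0.16 in that library, against 0.12 and 0.09 in NCI-H1650 replicates 1 and 2. NCI-H1650Re replicate 3 was the lowest of its line for 14 members, CYBA, CTU2 and CPNE7 among them, and the highest for 8, among them MAP1LC3B, MBTPS1, ZDHHC7, KIAA0513 and PIEZO1. Shares over all genes for these counts of highest and lowest libraries are not given here, and nothing is read from the counts. The SD of the members' deviations was 0.21 in NCI-H1650Re replicate 3 and 0.17 in replicate 1, against 0.08 in replicate 2. For all tested genes these were 0.19, 0.16 and 0.10, so replicate 2 was the steadiest in both. Without both replicate 3 libraries, the members' median log2 change was 0.53.

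In the authors' deposited table all 28 members had a log2 fold change above 0, with a median of 0.51 and a range from 0.03 for APRT to 1.37 for CPNE7. The median over all genes there was 0.00657. Those values come from the same libraries on which the members were chosen, so nothing is read from the count. The authors' deposited table marked 2 of 28, ZDHHC7 (log2 fold change 1.02) and KIAA0513 (1.02), as up, against 2.47% of all tested genes. ANKRD11 was not marked in the authors' deposited table, at a log2 fold change of 0.999922. The 860 genes marked there have log2 fold changes of at least 1.0 in size and an FDR of at most 0.00972, and no unmarked gene meets a log2 fold change of 1 with an FDR of 0.01.

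Genes that are not on the list but lie between its outermost members were higher too. For these genes, limma on all 11764 genes, adjusted by the Benjamini-Hochberg method at 0.05, gave the calls. Of 19 such genes 14 were tested, and 10 of 14 rose, 0 fell and 4 did not pass, where 16.6% of all genes tested rose and 13.9% fell. The interval was picked from neighbours that moved together, so this count is no independent evidence. Their median log2 change was 0.61, above the members' 0.44, and their SD was 0.49 against the members' 0.23, a difference that was not tested.

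The largest rise among them was that of SLC7A5, the LAT1 transporter of large neutral amino acids, at 162, 145 and 191 FPKM in NCI-H1650 and 619, 644 and 623 FPKM in NCI-H1650Re. Its log2 change was 1.93 (SE 0.10, limma adjusted p = 0.000165), outside the range of the members around it. MVD, an enzyme of the mevalonate pathway, rose from 17.5 ± 1.22 to 43.4 ± 9.65 FPKM (log2 change 1.24, limma adjusted p = 0.00126), and COTL1, an actin-binding coactosin, from 222 ± 7.91 to 470 ± 42.8 FPKM (log2 change 1.07, limma adjusted p = 0.000303). ZNF469 rose by 0.94, C16orf74 by 0.77 and CDT1, the replication licensing factor, by 0.70 on the log2 scale. ZNF469 passed the filter on low values only through NCI-H1650Re. The smallest rise that passed was that of COX4I1, a subunit of cytochrome c oxidase, from 97.4 ± 1.45 to 129 ± 7.002 FPKM (log2 change 0.40). Next was the ribosomal protein gene RPL13, from 105 ± 6.19 to 150 ± 13.7 FPKM (0.50). RPL13 has many processed pseudogenes, and its value is uncertain to that extent. GSE1, GINS2, MTHFSD and JPH3 did not pass, with log2 changes from 0.09 for GSE1 to 0.35 for JPH3.

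Past CHMP1A, toward the end of the chromosome, 12 more genes were tested. Of these 9 rose and 3 did not pass, with 0 falls (median log2 change 0.47). Over all genes tested 16.6% rose and 13.9% fell. The set was chosen with earlier results of these data known, so this count is no independent evidence. CENPBD1 rose by 0.71, SPATA2L by 0.68, VPS9D1 by 0.57, ZNF276 by 0.56 and SPATA33 by 0.50 on the log2 scale. CDK10, a cyclin-dependent kinase, had a log2 change of 0.25 (limma adjusted p = 0.0749) and did not pass. Without NCI-H1650 replicate 2 4 of the 12 passed and without NCI-H1650Re replicate 2 5 passed, each of them higher. SPATA33 then missed the threshold, with limma adjusted p = 0.0583 and 0.0575.

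**Figure D4:**
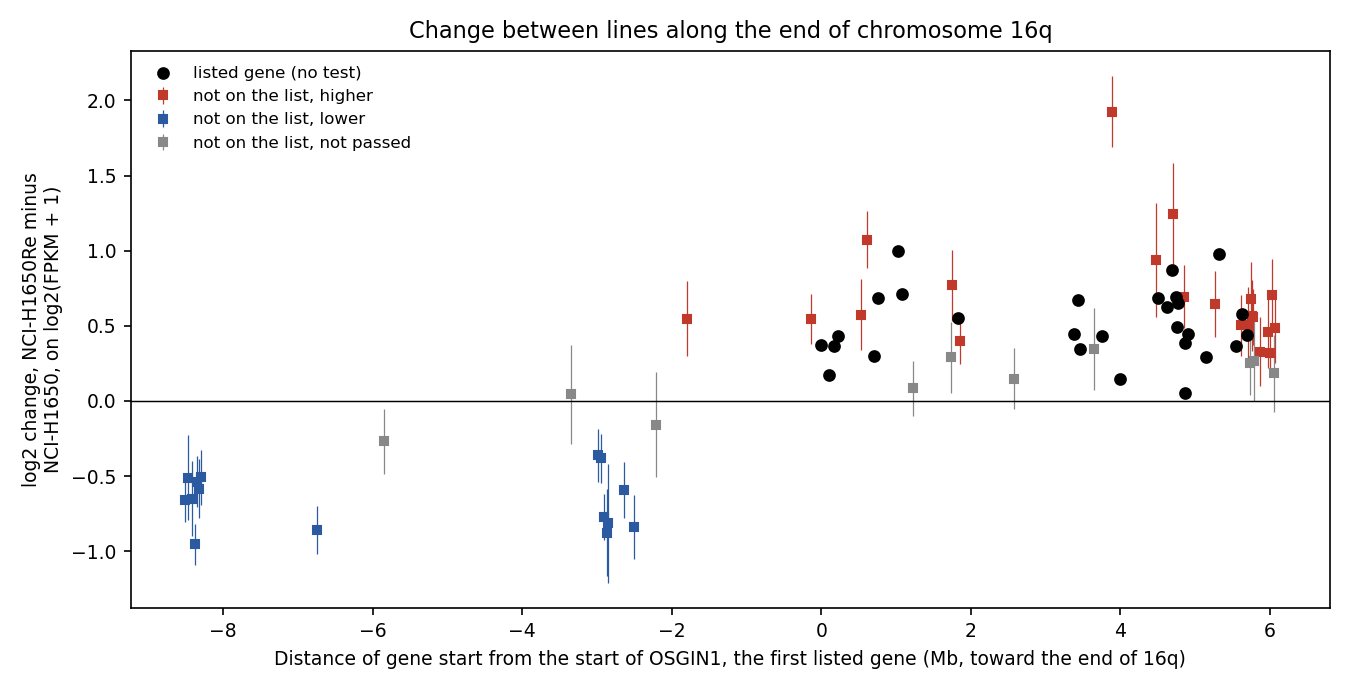
The x axis is the distance in Mb of each gene's start from the start of OSGIN1, rising toward the end of 16q, and the y axis the log2 change on log2(FPKM + 1); black circles are listed genes, shown without a test, and squares other tested genes, coloured by limma call, with 95% intervals. Before MPHOSPH6 the squares lie below 0, down to -0.95, apart from CDYL2 at 0.04, and those from MPHOSPH6 on stand above 0, as do the 28 circles.

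On the other side the direction changed. Of the 20 tested genes nearest before OSGIN1, which reach back 8.51 Mb to TMEM170A, 15 fell and 2 rose, which leaves 3 short of the threshold, at a median of -0.56. Over all genes tested 13.9% fell and 16.6% rose. This set too was chosen with earlier results known, so its count is no independent evidence. The 2 that rose were the nearest to the list: HSBP1, a heat shock factor-binding protein, from 5.47 ± 0.0321 to 8.45 ± 0.504 FPKM (log2 change 0.55, limma adjusted p = 0.00185), and MPHOSPH6, an exosome-associated protein, from 9.90 ± 0.852 to 15.0 ± 1.96 FPKM (0.55, limma adjusted p = 0.00862). Next came SDR42E1, below the filter and not tested, at 0.53, 0.61 and 0.75 FPKM in NCI-H1650 and 0.06, 0.08 and 0.13 FPKM in NCI-H1650Re. PLCG2, a phospholipase C, was at 2.45 ± 0.562 and 2.09 ± 0.423 FPKM and did not pass (log2 change -0.16, 95% interval -0.50 to 0.19, limma adjusted p = 0.453). Without both replicate 3 libraries its log2 change was 0.09.

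Farther back, genes were lower in NCI-H1650Re, by the log2 changes that follow. CMIP fell from 42.5 ± 2.67 to 23.4 ± 2.47 FPKM (log2 change -0.84, limma adjusted p = 0.00101) and GCSH, the lipoyl carrier of the glycine cleavage system, from 34.4 ± 6.02 to 18.1 ± 0.953 FPKM (-0.88). SYCE1L changed by -0.86 on the log2 scale. The largest fall of the 20 was that of GABARAPL2, a relative of the member MAP1LC3B in the same autophagy protein family, from 68.5 ± 1.52 to 34.9 ± 0.828 FPKM (-0.95, limma adjusted p = 0.000181). Of these LC3 relatives on one chromosome arm, one was lower and the other higher in NCI-H1650Re.

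From MPHOSPH6 at chromosome 16, 82147798 to 82170226, to the last tested gene, GAS8, all 56 tested genes had a log2 change above 0, over 7.90 Mb. The 28 of them that are not on the list counted 21 that rose, 0 that fell and 7 that did not pass. Over all genes tested 6453 of 11764 had a log2 change above 0, 16.6% rose and 13.9% fell. The annotated end of PLCG2, the nearest tested gene with a negative value, lies 185 kb before MPHOSPH6. These bounds were set after the values were seen, and they describe where the sign of the log2 change turned among genes with enough reads. Median-of-ratios scaling moved the median of all genes from 0.03 to 0.00559 and that of the members from 0.44 to 0.41.

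**Figure D5:**
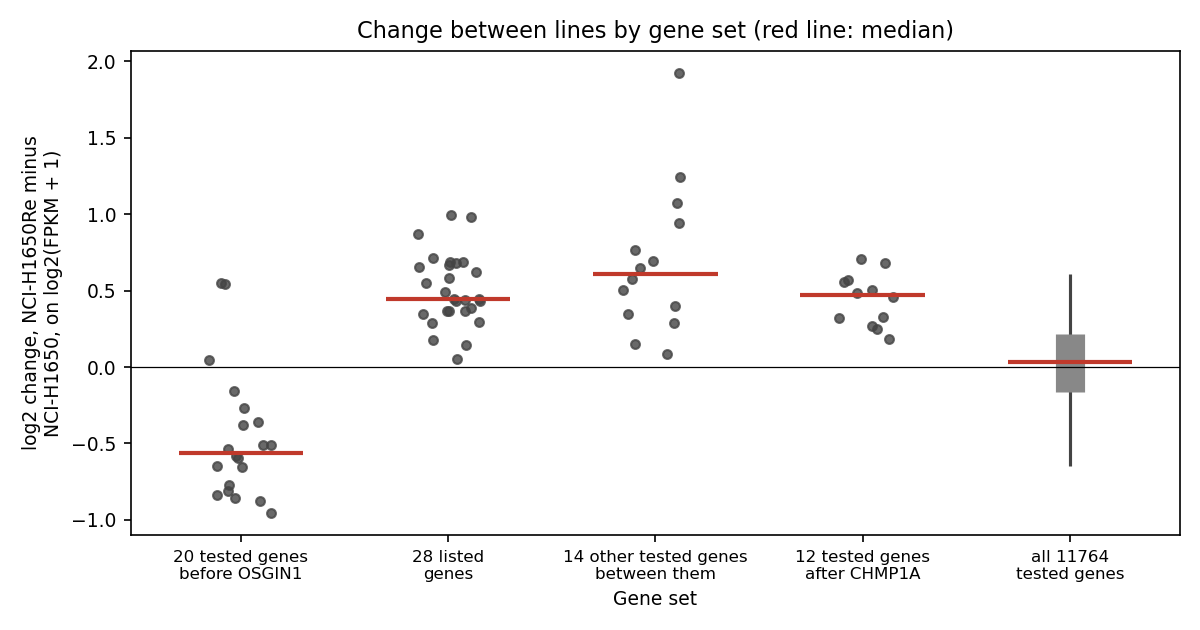
The y axis is the log2 change on log2(FPKM + 1), each point 1 gene, red lines medians, and the grey bar and thin line at the right the quartiles and the 5th to 95th percentiles of 11764 tested genes. Medians were -0.56 before OSGIN1, 0.44 for the listed genes, 0.61 for the other genes between them, 0.47 after CHMP1A and 0.03 over all.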

How the data were processed

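RNA sequencing libraries numbered 3 for each of the lines NCI-H1650 and NCI-H1650Re. Tools listed in the submitters' processing notes are HISAT2 and Bowtie2 (aligners), RSEM and DESeq2, with no version. The notes also name the mouse build mm10, although the deposited identifiers are human Ensembl genes; no human build was named. The authors deposited FPKM values for 12659 genes, with an unstated filter. Counts were deposited by the authors for the 860 genes they marked, and served here only for depth and for KIAA0513. The FDR, an adjusted p-value, and the log2 fold change of each gene are the authors', per the file headers.

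Because counts covered only marked genes, limma 3.58.1 (R 4.3.3) was fitted to log2(FPKM + 1) of all 6 libraries, with line as the only term and a variance trend. The fit took the 11764 genes whose mean reached 1 FPKM in either line, with Benjamini-Hochberg adjustment over all of them at 0.05. FPKM was not scaled further. The members, role groups, neighbour sets and motifs were chosen with earlier results of these data known. All members are named; of other genes, the rule took the 6 largest rises and falls that passed between the members, those with a mean of at least 100 FPKM, and, beyond each end, the 5 nearest and the 3 largest changes that passed. GSE1, GINS2, MTHFSD, JPH3, CDYL2, TMEM170A, GAS8 and SDR42E1 were named after their values were seen. A gene that the rule takes is not reported here. Positions, transcript length and GC came from GENCODE release 29 (GRCh38), matched by identifier for 11909 genes (94.1%). Promoters are RefSeq's. Depth was estimated as counts over FPKM and length for 29 genes with 1 annotated transcript, and the precision of low genes is limited by it. Python 3.11.15 and matplotlib 3.10.9 made tables and figures. Alternatives changed the pseudocount (0.1, 0.01), the filter (none, 5 FPKM), the scaling (median-of-ratios, quantile), the model (replicate block, no trend) and the libraries (each left out, both replicate 3 left out).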

Additional observations from a re-analysis of the deposited data

How the results depend on the processing

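The members' median log2 change of 0.44 moved beyond the spread of library medians (SD 0.05) to 0.53 and 0.54 with pseudocounts of 0.1 and 0.01, and to 0.53 without both replicate 3 libraries. Leaving out a single library gave 0.41 to 0.52. The highest, without NCI-H1650 replicate 3, also moved beyond that spread. Over 15 alternatives, 414 of 415 log2 changes of single members were above 0, the exception being APRT, which ran from -0.0440 without NCI-H1650Re replicate 1 to 0.130 without NCI-H1650Re replicate 3 with 1 library left out and was 0.131 without both replicate 3 libraries. The count of members with every NCI-H1650Re library higher was 24 to 25 with 1 library left out. Fewer libraries must then separate, and the share over all genes for these settings is not given here. Nothing is read from this count or from that of the members' log2 changes above 0, because that difference chose the members. Without any alternative, 6453 of 11764 tested genes had a log2 change above 0. The count of all genes changed, 3587, ran from 1785 without NCI-H1650 replicate 2 to 4478 without NCI-H1650Re replicate 3 with 1 library left out, was 5080 without both replicate 3 libraries, and was 2386 when parental replicate 1 was left out and 1898 when derivative replicate 2 was. Past CHMP1A 4 to 10 of 12 genes rose with 1 library left out, before OSGIN1 14 to 16 of 20 fell, and between the members 10 to 12 rose. PLCG2 turned from -0.16 to 0.0920 without both replicate 3 libraries. CDK10 passed without NCI-H1650 replicate 3 (limma adjusted p = 0.0428) and without both replicate 3 libraries (0.0175); the cause was not tested.

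Deviations of same-numbered libraries of the lines correlated at 0.17, -0.04 and 0.21 for replicates 1, 2 and 3. Of 6 libraries, 3 correlated best with their own number. These values cannot decide whether same-numbered libraries share a batch. With a replicate block 3522 genes changed, against 3587 without it. Depth limits the precision of low genes such as CPNE7 and OSGIN1, but its part in their spread was not tested. Libraries may be technical repeats.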
